A study of Mus musculus with 60 samples.

Results

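The genes described here encode the beta subunits of heterotrimeric G proteins that the arrays could read by name: Gnb1, Gnb2, Gnb4 and Gnb5, 4 of the 18193 genes that have a probe set of their own. Gnb4 was selected on its lower values after fluoxetine in an earlier look at these arrays, and the other members were taken as its relatives. Every probe set annotated with a single member symbol was used, 9 in all, of which 8 passed the filter on low values (a log2 intensity of at least 4 on at least 6 arrays). The filter let through at least 1 probe set of each of the 4 genes.

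A G protein carries signals from receptors in the cell membrane, and its beta subunit works as a tight pair with a gamma subunit. When a receptor is activated the beta-gamma pair separates from the alpha subunit and acts on potassium channels, phospholipase C beta, calcium channels and receptor kinases. Serotonin receptors of the Gi/o-coupled kind use this route in cortical neurons. Gnb1 and Gnb2 encode widely expressed beta subunits, Gnb4 encodes a close relative known in the mouse brain as a label of claustrum neurons, and Gnb5 encodes a divergent subunit that pairs with RGS proteins of the R7 class in place of a gamma subunit.

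The samples are cortex RNA from males of 30 inbred mouse strains, labelled as 10 to 11 weeks old. One group drank plain water (a dose of 0 mg/kg) and the other received oral fluoxetine, an inhibitor of serotonin reuptake, at 18 mg/kg per day for 21 days. Each strain gave 1 array per treatment, so there were 30 water and 30 fluoxetine arrays, and each array held pooled RNA of 3 mice. All the mice were of inbred strains, no strain had a repeat array under the same treatment, and strain therefore serves as the unit of replication. Arrays had median intensities of 39.1 to 43.1, and 27.8 to 29.4% of probe sets stood at the lowest value of the normalization, a log2 intensity of 2.07 that is called the floor here. Levels of one probe set are not set against those of another, because probes differ in brightness. Markers of upper-layer cortical neurons were tested in 7 of 7 cases, with a mean log2 score of 11.05 to 11.54 over all arrays. Of 9 striatum markers 6 were tested, with a score of 8.78 to 10.18 on water arrays and 8.87 to 9.63 on fluoxetine arrays. Drd2, another striatum marker, was near the floor throughout. Ttr, the only choroid plexus marker of 6 that was tested, spanned 4.25 to 15.09. The tissue is a mixture, so fewer cells of a type and less RNA per cell cannot be told apart.

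Gnb1, the most studied of the beta subunits, showed no difference between treatments that passed the test. On the probe set used for the gene (1454696_at) the water arrays ran from 12.61 in C57BLKS/J through a median of 13.78 to 14.04 in BUB/BnJ, and the fluoxetine arrays from 12.61 in C58/J through 13.77 to 14.09 in LG/J. The groups overlapped over almost their whole range. The mean within-strain difference, fluoxetine minus water, was -0.02 on the log2 scale (SE 0.0198, 30 strains, limma adjusted p = 0.761), with 14 strains lower and 16 higher. Its 95% interval ran from -0.06 to 0.02, that is from -3.85% to 1.69%. The sign of this small value turned when all probe sets of Gnb1 were averaged, to 0.01.

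Gnb2, the other widely expressed beta subunit, was likewise not past the threshold. Its water arrays ran from 12.33 in BALB/cJ through a median of 12.55 to 12.90 in BUB/BnJ, and its fluoxetine arrays from 12.29 in RIIIS/J through 12.50 to 12.78 in DBA/2J. Both groups covered nearly the same range. The mean difference was -0.04 (SE 0.0283, adjusted p = 0.523), with 17 strains lower and 13 higher, and its 95% interval of -0.10 to 0.02 reached from -6.61% to 1.16%. Strains spread widely around that mean, from -0.37 in BUB/BnJ to 0.22 in C3H/HeJ.

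Gnb4 stood apart from the others in this contrast, which is how it was chosen, so its difference is given without a test. On its brightest probe set (1419470_at) the water arrays ran from 8.05 in RIIIS/J through a median of 9.06 to 9.50 in CE/J, and the fluoxetine arrays from 7.98 in RIIIS/J through 8.84 to 9.27 in CE/J. The same strains formed both ends in both groups, and the groups overlapped over most of their range. The group means were 8.97 ± 0.327 with water and 8.81 ± 0.312 with fluoxetine (SD, n = 30 each). Within strains the difference was -0.16 (SE 0.0294), a change of -10.6%. These values were not corrected for the selection of Gnb4 on this contrast. In the fit over all 11886 genes, 7 genes, or 0.0589%, passed an adjusted p of 0.05 (0.0421% lower and 0.0168% higher), and Gnb4 was selected as 1 of these 7, with the second smallest p.

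The fall of Gnb4 was present in 27 of 30 strains and uneven in size. The widest drop was in P/J, from 9.19 with water to 8.54 with fluoxetine, or -0.66. C57BL/6J went from 9.18 to 8.77, C58/J from 9.32 to 8.95, MA/MyJ from 9.19 to 8.82 and DBA/2J from 9.03 to 8.73. These 5 strains carried the largest falls, between -0.30 and -0.66. At the other end NZB/BlNJ was higher by 0.04, LP/J by 0.12 and C3H/HeJ by 0.13. In LG/J, NOD/LtJ and SM/J the level was lower by no more than 0.03. The SD of the differences over strains was 0.163.

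**Figure D1:**
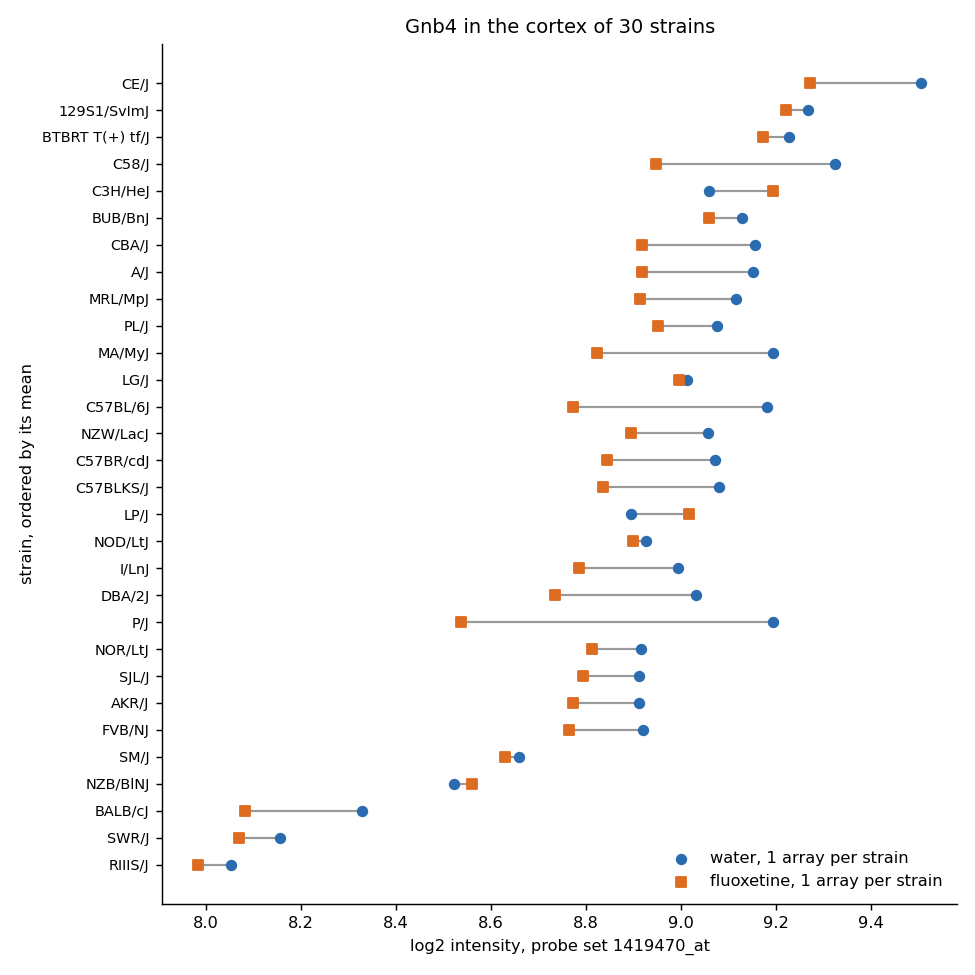
Log2 intensity of Gnb4 on probe set 1419470_at (horizontal axis) in each of the 30 strains, ordered by strain mean (vertical axis), with 1 water array (circle) and 1 fluoxetine array (square) per strain joined by a line. The fluoxetine square lies left of the water circle in 27 strains, and RIIIS/J, SWR/J and BALB/cJ lie lowest on both arrays.

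The remaining probe sets of Gnb4 gave mean differences of about the same size with more scatter. Their medians were -0.17 on 1419469_at and -0.03 on 1439632_at, against -0.15 on 1419470_at. On 1439632_at the mean leaned on a few strains such as C58/J at -1.16 and RIIIS/J at -1.07, while LG/J was higher by 0.61. On 1419469_at the water arrays ran from 6.35 in SWR/J to 8.94 in CE/J and the fluoxetine arrays from 6.06 in BALB/cJ to 8.65 in 129S1/SvImJ, and the difference was -0.13 ± 0.231 (SD over 30 strains), lower in 22 strains. On 1439632_at the water arrays ran from 4.83 in RIIIS/J to 6.71 in C58/J and the fluoxetine arrays from 3.76 in RIIIS/J to 6.43 in BTBRT T(+) tf/J, and the difference was -0.14 ± 0.427, lower in 17 strains and higher in 12. All 3 probe sets were lower in 14 strains, 2 of them in 10 strains, 1 in 4 strains and none in C3H/HeJ and LP/J. The differences of the probe sets went together across strains with r = 0.676 for 1419469_at with 1419470_at, 0.433 for 1419469_at with 1439632_at and 0.424 for 1419470_at with 1439632_at, over strains that share the same arrays.

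Gnb5, the partner of R7-class RGS proteins, did not pass the test. Its water arrays on 1422208_a_at ran from 10.97 in C3H/HeJ through a median of 11.11 to 11.39 in BUB/BnJ, and its fluoxetine arrays from 10.63 in P/J through 11.11 to 11.33 in LP/J. A single fluoxetine array, that of P/J, lay well under the rest. The mean difference was -0.02 (SE 0.0269, adjusted p = 0.800) with a 95% interval of -0.07 to 0.04, or -4.99% to 2.51%, lower in 18 strains and higher in 12. Without P/J, whose own difference was -0.54, the mean was -0.0012. It turned to 0.01 when the within-strain difference of an oligodendrocyte marker score was added to the fit. The other Gnb5 probe set, 1447630_x_at, was at or near the floor on all arrays and was not tested. Gnb3, the beta subunit of cone photoreceptors, which is no member, was at the floor on 58 of 60 arrays.

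**Figure D2:**
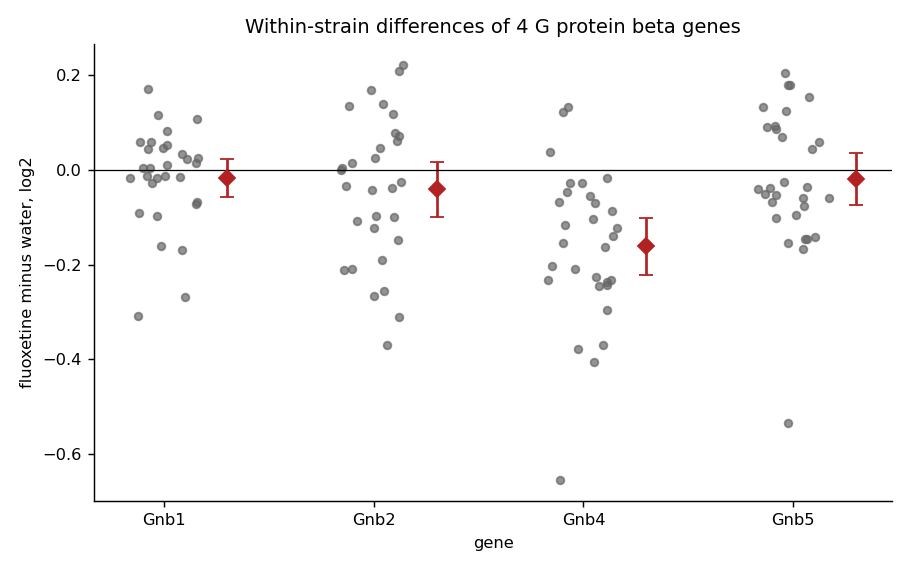
Within-strain differences, fluoxetine minus water on the log2 scale (vertical axis), for Gnb1, Gnb2, Gnb4 and Gnb5 (horizontal axis). Each grey point is 1 of 30 strains, set apart sideways for legibility, and the diamond with its bar is the limma estimate with its 95% interval, which covers 0 for Gnb1, Gnb2 and Gnb5. Gnb4, selected on this contrast, is drawn at -0.16 as a description, and its bar takes no account of that selection.

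Whether the other beta subunits were higher where Gnb4 was lower was asked in 2 ways. First, in the 27 strains with less Gnb4 after fluoxetine, Gnb1 was higher in 14, Gnb2 in 11 and Gnb5 in 9. All 3 others were higher in 2 of these strains, 2 of them in 10, 1 of them in 8 and none in 7. In P/J, with the largest fall of Gnb4, Gnb1 was higher by 0.04 while Gnb2 was lower by 0.31 and Gnb5 by 0.54. Gnb4 minus Gnb1 changed by -0.15, Gnb4 minus Gnb2 by -0.12 and Gnb4 minus Gnb5 by -0.14, which are values of the selected contrast and carry no test.

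Second, the size of the differences was related across the 30 strains. The 3 correlations with Gnb4 and the 3 among the others were positive, and all come from the same arrays for every member, where Gnb2 also moved with the spike-in controls (r = -0.712). Gnb4 went with Gnb1 at r = 0.194 (rho 0.218, permutation p = 0.300, adjusted p = 0.300 over 6 relations) and with Gnb2 at r = 0.251 (rho 0.135, permutation p = 0.181, adjusted p = 0.236). Neither passed the threshold, and without P/J and C3H/HeJ the value with Gnb2 turned to -0.053. Gnb4 went with Gnb5 at r = 0.485 (permutation p = 0.00902, adjusted p = 0.0271), but rho was 0.252 (adjusted p = 0.268) and r fell to 0.060 without P/J and C3H/HeJ, so this relation rested on those strains. Left out alone, P/J brought r down to 0.173, while C3H/HeJ and C58/J left it at 0.438 and 0.460 with permutation adjusted p of 0.0684 and 0.0525.

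Gnb2 went with Gnb5 at r = 0.489 (rho 0.453, permutation p = 0.00578, adjusted p = 0.0271, with rho adjusted p = 0.0755). Without BUB/BnJ and P/J it was 0.351 (permutation p = 0.0669), so this relation also leaned on a few strains. It was 0.445 without C3H/HeJ and 0.385 without P/J, with permutation adjusted p of 0.0684 and 0.0801. Gnb1 with Gnb2 gave r = 0.365 (adjusted p = 0.0976), which passed when SJL/J was left out, and Gnb1 with Gnb5 gave 0.239 (adjusted p = 0.236).

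**Figure D3:**
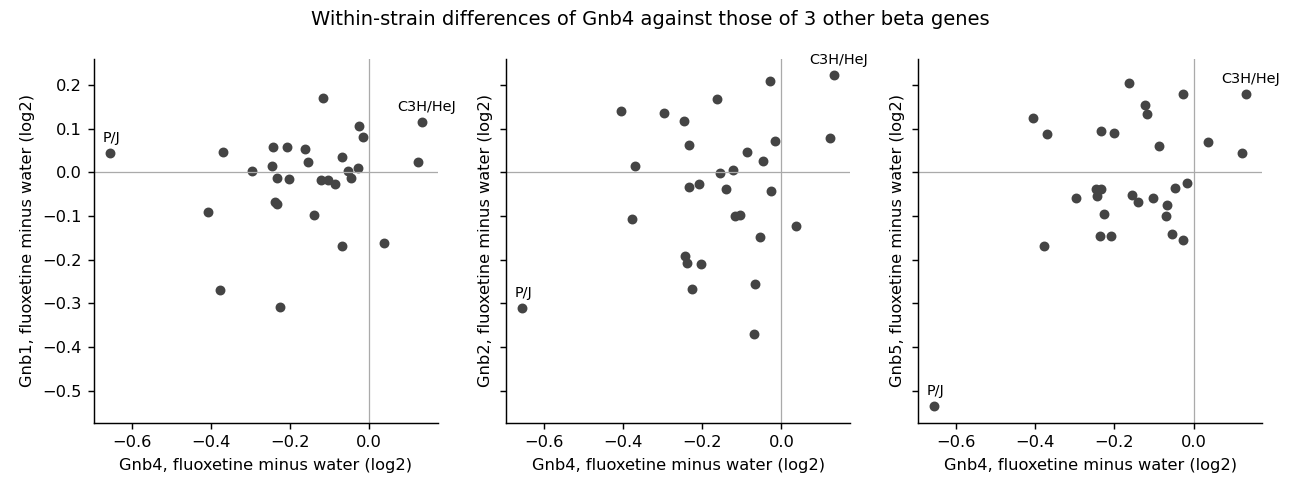
Within-strain difference of Gnb4 (horizontal axis, fluoxetine minus water, log2) against that of Gnb1, Gnb2 and Gnb5 (vertical axis, same unit) in 30 strains, 1 point per strain. P/J lies at -0.66 for Gnb4 and -0.54 for Gnb5, and r between these genes is 0.485 with and 0.060 without P/J and C3H/HeJ.

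Values of what moved beside the members were read from marker genes of other cell types and from control probes, with 64 relations computed in all. Gnb4 differences followed the score of deep-layer neurons (mean log2 value of Tle4, Foxp2 and the other tested markers) at r = 0.605 (rho 0.555, permutation adjusted p = 0.00789), and 0.430 without P/J and C3H/HeJ. They ran against the astrocyte score at r = -0.566 (rho -0.285, adjusted p = 0.0253), and -0.317 without those strains. Without P/J alone these were 0.482 and -0.337, with permutation adjusted p of 0.0978 and 0.346. Without C58/J the second was -0.532, little moved, with an adjusted p of 0.0716. Of 9 deep-layer markers 7 were tested, the score spanned 9.15 to 10.55 on water arrays and 9.37 to 10.69 on fluoxetine arrays, and Syt6 was near the floor. Of 8 astrocyte markers all 8 were tested, with a score of 11.94 to 12.46 on water arrays and 12.15 to 12.85 on fluoxetine arrays, higher in 25 of 30 strains. Of these 8 astrocyte markers 0 passed the test of fluoxetine against water and 2 had lower means, with a median difference of 0.03. The part of either score in the values of Gnb4 was not tested.

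Oligodendrocyte markers, myelin genes such as Mbp, moved in the same direction as Gnb4. All 10 that were tested of 11 had lower means, with a median of -0.22 and 0 past the threshold, and the score spanned 9.97 to 11.03 with water and 9.22 to 11.07 with fluoxetine. Gnb4 differences were related to that score at r = 0.436 (rho 0.320, permutation adjusted p = 0.101). With the score as a covariate the Gnb4 difference was -0.12. The claustrum markers are of interest because Gnb4 labels those neurons. The 5 of 8 that were tested gave a score of 9.82 to 10.30 on water arrays and 9.75 to 10.29 on fluoxetine arrays, and Oprk1 and Car3 were at means of 2.87 and 2.93, close to the floor. Nr4a2, a claustrum transcription factor, had a difference of -0.18 (limma adjusted p = 0.299) and Ntng2 of -0.08 (adjusted p = 0.296), while Lxn was at 0.01, Gng2 at 0.04 and Synpr at 0.12 (adjusted p = 0.877, 0.404 and 0.179). The median of the 5 was 0.01. Gnb4 differences were related to the claustrum score at r = 0.140 (rho 0.087, permutation p = 0.465), and with that score as a covariate the Gnb4 difference was -0.16.

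Gnb5 differences ran against the astrocyte score (r = -0.650, rho -0.425, permutation adjusted p = 0.00736) and the microglia score (r = -0.642, rho -0.491, adjusted p = 0.00864), and with the deep-layer score (r = 0.4995, rho 0.380, adjusted p = 0.0447). The microglia score rested on 8 tested markers of 9 and spanned 8.71 to 9.56 with water and 8.80 to 10.15 with fluoxetine. Without P/J and NZW/LacJ these became -0.374, -0.311 and 0.254, and each missed the threshold without P/J alone, at -0.421, -0.393 and 0.314. The last of these also missed it when any of 14 other strains was left out, but r hardly moved, with a lowest value of 0.465. Gnb2 differences moved with measures of array quality. They ran against the mean of the spike-in controls at r = -0.712 (rho -0.710, permutation adjusted p = 0.0032) and against the 3 prime minus 5 prime signal of Actb at r = -0.534 (rho -0.511, adjusted p = 0.0253). The latter had an adjusted p over the threshold without RIIIS/J, SM/J or P/J, at an r of -0.487, -0.479 and -0.539 that moved little. For Gnb4 the quality measures gave r of 0.085 for Actb, -0.044 for Gapdh and -0.242 for the spike-ins, with adjusted p of 0.785, 0.885 and 0.454. The part of array quality in the Gnb2 values was not tested.

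Levels of Gnb1 and Gnb4 were repeated closely on both arrays of a strain, and those of Gnb2 and Gnb5 much less so. An F-test of strain was past the threshold in 88.3% of all genes, so passing it is the usual case here. Gnb1 gave F = 77.1 (limma adjusted p = 2.57e-20) and Gnb4 F = 14.8 (adjusted p = 1.71e-10). Gnb5 passed with F = 2.14 (adjusted p = 0.0233) and Gnb2 did not, with F = 1.79 (adjusted p = 0.0624). The intraclass correlation, the share of variance that both arrays of a strain have in common, was 0.976 for Gnb1, 0.870 for Gnb4, 0.358 for Gnb5 and 0.274 for Gnb2, against a median of 0.593 over all genes. The value of Gnb1 was above that of 99.0% of genes and that of Gnb4 above 91.8%, while Gnb5 stood above 17.2% and Gnb2 above 10.3%.

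With every probe set tested as its own feature, strain passed in 85.8% of all probe sets and in 7 of the 8 tested of the members, all but that of Gnb2. One of the 7, the Gnb1 probe set 1425908_at, reached log2 4 on only 9 arrays, all of strains where it is high, so it had to differ between strains.

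The 2 weaker strain results depended on single strains. The Gnb5 call was lost without C58/J, BUB/BnJ or LG/J, with an adjusted p of at most 0.0569. The Gnb2 call was gained without C3H/HeJ, NZW/LacJ, SM/J, C57BR/cdJ, BUB/BnJ or P/J, with an adjusted p down to 0.0405. Gnb2 strain means spanned 12.37 in 129S1/SvImJ to 12.74 in LG/J, a 1.29-fold range, and Gnb5 strain means spanned 10.89 in C58/J to 11.34 in BUB/BnJ, a 1.37-fold range. When strains were put in order of their means, no step between neighbours exceeded the spread between a strain's own arrays (an SD of 0.111 for Gnb2 and 0.105 for Gnb5), so no place in either order could be told from the next.

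Gnb1 strain means fell into separate groups. On 1454696_at 10 strains lay between 12.64 and 13.10, in rising order C57BLKS/J, NZW/LacJ, C58/J, C57BL/6J, BTBRT T(+) tf/J, MA/MyJ, NZB/BlNJ, C57BR/cdJ, LP/J and P/J. A gap of 0.450 followed, and the other 20 strains lay between 13.55 in CE/J and 14.05 in LG/J. The spread between a strain's arrays was 0.0745, and 6 of 29 steps between neighbours exceeded it. Most neighbours within each group therefore did not differ beyond their spread, but the gap was several times wider than it. The whole range was 2.67-fold.

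A second Gnb1 probe set, 1417432_a_at, placed the same 10 strains lowest, between 10.24 in LP/J and 10.60 in NZW/LacJ. CE/J followed alone at 10.99, and after a gap of 0.927 the other 19 strains lay between 11.92 and 12.66. On this probe set the range was 5.35-fold, and the treatment difference was 0.02 (adjusted p = 0.910 over all probe sets). The third, 1425908_at, gave a different picture. It was at the floor or within 0.03 of it in 25 strains and above it in 5 strains: NOR/LtJ at 4.36, NOD/LtJ at 5.52, SWR/J at 5.52, FVB/NJ at 5.61 and SJL/J at 5.84. They are the 5 strains placed in the Swiss-derived family here, and both arrays of each stood above the floor, the lowest being NOR/LtJ with 3.97 on water and 4.75 on fluoxetine. All 5 belonged to the high group on both other probe sets.

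**Figure D4:**
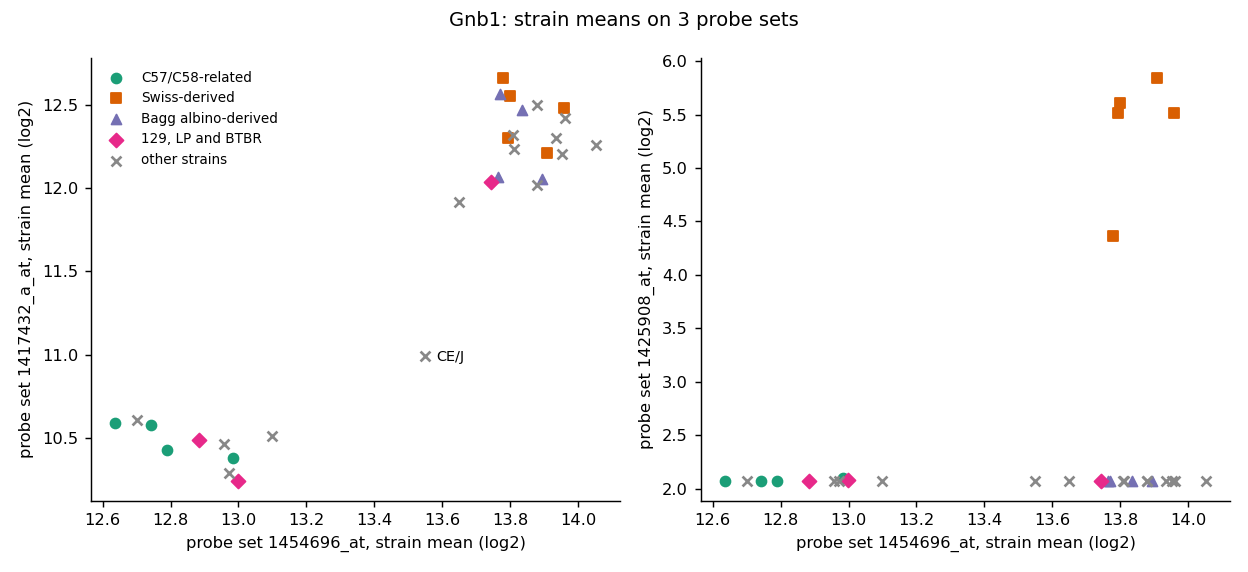
Strain means of Gnb1 (log2 intensity, mean of the water and the fluoxetine array) on probe set 1454696_at (horizontal axes) against 1417432_a_at (left) and 1425908_at (right), 1 symbol per strain, shaped by family. On the left 10 strains lie at the lower left and CE/J lies between the groups at 10.99, and on the right only the 5 Swiss-derived strains rise from the floor of 2.07.

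Families known from mouse genealogy differed in Gnb1, but not each had a level of its own. Among 16 strains of 4 families, strain means of Gnb1 differed with F = 27.1 (limma adjusted p = 0.00117), where 2.75% of all genes passed. The C57/C58-related strains averaged 12.79 ± 0.146 (SD, n = 4), the family of 129S1/SvImJ, LP/J and BTBRT T(+) tf/J averaged 13.21 ± 0.467 (n = 3), the Bagg albino-derived strains 13.82 ± 0.0609 (n = 4) and the Swiss-derived strains 13.85 ± 0.0804 (n = 5). All 4 C57/C58-related strains were low, and the family of 129S1/SvImJ was split, with 129S1/SvImJ at 13.74, BTBRT T(+) tf/J at 12.88 and LP/J just above that. The Bagg albino-derived and Swiss-derived means lay close together. The other low strains, NZW/LacJ, NZB/BlNJ, MA/MyJ and P/J, belong to no family here. Family means did not pass the test for Gnb2 (adjusted p = 0.964), Gnb4 (adjusted p = 0.605) or Gnb5 (adjusted p = 0.511).

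Gnb4 strain means on 1419470_at were lowest in RIIIS/J at 8.02, SWR/J at 8.11 and BALB/cJ at 8.21. A gap of 0.335 led to NZB/BlNJ at 8.54 and SM/J at 8.64, and the other 25 strains lay from 8.84 in FVB/NJ to 9.39 in CE/J, with 129S1/SvImJ at 9.24 and BTBRT T(+) tf/J at 9.20 below it. The spread between a strain's arrays was 0.115 and only 3 of 29 steps exceeded it: above BALB/cJ, above SM/J and below CE/J. Between FVB/NJ and 129S1/SvImJ no strain differed from its neighbour beyond that spread. The range over strains was 2.58-fold.

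The second Gnb4 probe set put other strains low as well. On 1419469_at 6 strains lay below a gap of 0.677: BALB/cJ at 6.26, SWR/J at 6.44, C57BR/cdJ at 6.69, C57BL/6J at 6.70, SJL/J at 6.73 and C57BLKS/J at 6.84. RIIIS/J followed at 7.52, and the other strains reached 8.78 in CE/J. On 1419470_at the same C57BR/cdJ stood at 8.96, C57BL/6J at 8.98 and C57BLKS/J at 8.96, in the middle of all strains. SJL/J stood at 8.85, below the median of 8.96 but above the gap. BALB/cJ and SWR/J were thus low on both of these probe sets. On 1439632_at RIIIS/J was lowest at 4.30 and BALB/cJ followed at 4.68, but SWR/J was among the higher strains at 6.12, and BTBRT T(+) tf/J was highest at 6.35. The level of SWR/J therefore depended on the probe set.

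**Figure D5:**
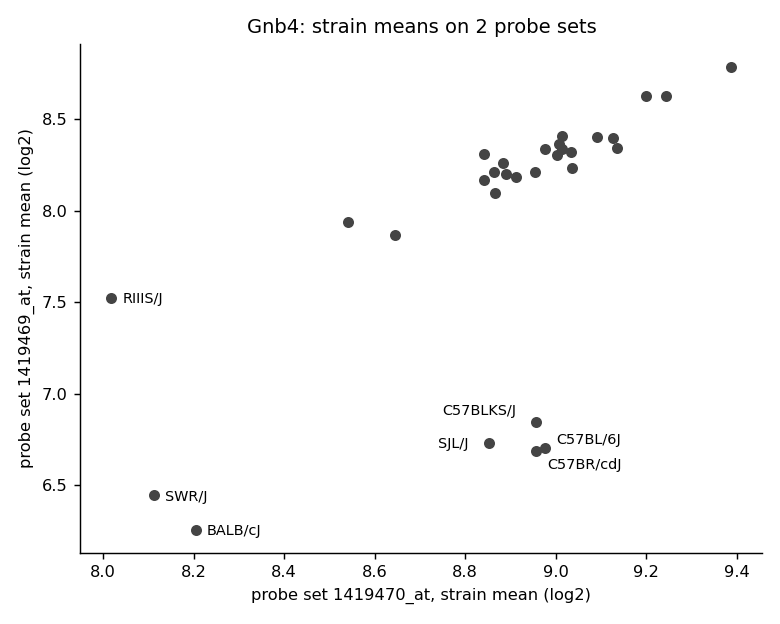
Strain means of Gnb4 (log2 intensity) on probe set 1419470_at (horizontal axis) and 1419469_at (vertical axis), 1 point per strain, with the low strains named. C57BLKS/J, C57BL/6J, C57BR/cdJ and SJL/J lie under 6.9 on the vertical axis and between 8.85 and 8.98 on the horizontal axis, while BALB/cJ and SWR/J are low on both.

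By family, on 1419470_at, the mean difference of Gnb4 in the C57/C58-related strains was -0.31 ± 0.0920 (SD, lower in 4 of 4). It was -0.10 ± 0.0472 in the Swiss-derived strains (5 of 5 lower), -0.15 ± 0.186 in the Bagg albino-derived strains (3 of 4 lower) and 0.01 ± 0.101 in the family of 129S1/SvImJ (2 of 3 lower). In the 14 strains of no family it was -0.18 ± 0.177, lower in 13. The sign of the Swiss-derived mean turned on the other probe sets, to 0.13 on 1419469_at (higher in 4 of 5) and 0.16 on 1439632_at (higher in 3 of 5), and the C57/C58-related mean was -0.29 and -0.32 there. The test of family differences gave F = 4.66 (limma adjusted p = 0.784), and 0% of all genes passed it, so the families could not be told apart. The same test gave an adjusted p of 0.840 for Gnb1, 0.965 for Gnb2 and 0.961 for Gnb5.

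Strain levels of the members were also set against one another, within the groups of strains that the gaps of Gnb1 and Gnb4 define. None of 9 relations passed an adjusted p of 0.05 (smallest 0.0774), while 3 had an unadjusted permutation p under 0.05. Gnb1 with Gnb4 gave r = -0.350 in the 10 strains with low Gnb1 (rho -0.479, permutation p = 0.342) and r = -0.239 in 17 strains with high Gnb1 (rho -0.044, permutation p = 0.354), where averaging the probe sets of each gene gave -0.657 (permutation adjusted p = 0.0333). That average of Gnb1 includes 1425908_at, which rose from the floor only in the 5 Swiss-derived strains. The part of this probe set in the value of -0.657 was not tested. Gnb4 with Gnb2 gave r = -0.016 and with Gnb5 0.128 in the 27 strains above the Gnb4 gap (permutation p = 0.939 and 0.524). On the probe sets used, no relation of strain levels with Gnb4 passed the threshold. The strains under the Gnb4 gap, RIIIS/J, SWR/J and BALB/cJ, were left out of all of these, also from the strains with high Gnb1. In that order Gnb1 was 13.81, 13.79 and 13.76 there, against a median of 13.775 over all strains. Gnb2 was 12.41, 12.48 and 12.39 against 12.55, and Gnb5 11.06, 11.07 and 11.01 against 11.11. These levels were not tested against low Gnb4.

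Relations among the other subunits did not pass either. Gnb1 with Gnb2 gave r = 0.726 in the 10 strains (rho 0.697, permutation p = 0.0216, adjusted p = 0.0774) and 0.493 in the 20 strains (rho 0.573, permutation p = 0.0258, adjusted p = 0.0774). Averaging the probe sets of each gene turned the value in the 20 strains to -0.217. Gnb2 with Gnb5 gave 0.451 over all 30 strains (rho 0.407, permutation p = 0.0129, adjusted p = 0.0774). Gnb1 with Gnb5 gave 0.010 and 0.427 in the 10 and the 20 strains (adjusted p = 0.978 and 0.135). Without CE/J 4 relations passed, without P/J or NZW/LacJ 1 did, and with the water arrays alone 4 passed. With CE/J left out, Gnb1 with Gnb2 and with Gnb5 in the remaining high strains gave 0.722 and 0.700.

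The genes with strain means most like those of each member were taken from all 11886, as a description over strains that share arrays. For Gnb1 the 3 most alike, ranked over all 30 strains, were Agrn, Noc3l and Zfp467. Within the 10 low strains and the 20 high strains their r with Gnb1 was 0.277 and 0.555 for Agrn, which lies on the same chromosome, 0.745 and -0.290 for Noc3l, and 0.272 and 0.176 for Zfp467. Noc3l thus turned its sign between the groups, and Agrn and Zfp467 kept theirs. The most unlike were Rpgrip1, Trmt9b and Ccdc25, with within-group values of -0.773 and -0.212, -0.286 and -0.293, and 0.006 and -0.469.

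For Gnb2 the most alike were Ranbp3 (r = 0.839 over 30 strains), Med24 (0.837) and Srsf5 (0.833), and the most unlike Lrrtm1 (-0.863), Epha7 (-0.820) and Yod1 (-0.802). For Gnb5 they were Dmtn (0.793), Dgkz (0.786) and Mtus2 (0.784), against Fam126b (-0.839), Golga4 (-0.806) and Herc3 (-0.769). For Gnb4 they were Mtmr9, Ankrd45 and Abhd10, with r of 0.533, 0.490 and 0.433 in the 27 strains above its gap, against Cyp2j9 (-0.404), Nqo1 (-0.237) and Pms1 (0.274 there, the sign turned).

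By within-strain differences the genes most like Gnb4 were Akap7, which encodes an anchor of protein kinase A (r = 0.806, 0.694 without P/J), Rnf152 (0.753 and 0.653) and Kcnip2, which encodes an accessory subunit of A-type potassium channels (0.742 and 0.578). The most unlike were A2ml1 (-0.779 and -0.720), Chga, which encodes chromogranin A of secretory granules (-0.765 and -0.621), and Pdzrn3 (-0.761 and -0.642). Of these 6 none passed the test of fluoxetine against water: Akap7 had a difference of -0.12 (limma adjusted p = 0.154) and Chga of 0.21 (adjusted p = 0.142).

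The nearest annotated protein-coding genes were read beside the members. Strain means of Gnb4 had an r of -0.186 with Mfn1 and 0.186 with Actl6a, the genes on its sides, in the 27 strains above its gap. Fluoxetine minus water was 0.01 for both neighbours (limma adjusted p = 0.809 for Mfn1 and 0.934 for Actl6a). Gnb1 had an r of 0.882 with Nadk, which encodes NAD kinase, in the 10 low strains and 0.366 in the 20 high strains, while its other neighbour Tmem52 was not tested. Gnb2 had an r of 0.310 with Gigyf1 and -0.339 with Actl6b over 30 strains, and Gnb5 one of -0.164 with Myo5c, with Bcl2l10 not tested.

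Partners and effectors of the beta subunits were read in 11 lists, in which 75 genes were tested in the contrast of fluoxetine with water. Of these 75, 0 passed the adjusted threshold in either direction, and 15, or 20%, had an unadjusted limma p under 0.05 (7 lower and 8 higher) against 15.3% of all genes (8% lower and 7.3% higher). The median difference was 0.00 for the lists and -0.00 for all genes. Strain differences passed in 67 of the 75, or 89.3%, close to the 88.3% of all genes.

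Among the gamma subunits, which complete the beta-gamma pair, 8 of 12 were tested and 4 had lower and 4 higher means. Gng7 had a difference of -0.09 (limma adjusted p = 0.303) and Gng2 of 0.04 (adjusted p = 0.404). Of the alpha subunits of the Gi/o and z class all 5 were tested, and Gnaz, the alpha subunit of Gz, had a difference of 0.06 (adjusted p = 0.175) and Gnao1 of 0.04 (adjusted p = 0.396). Of 7 other alpha subunits 6 were tested, with Gna13 at 0.04 (adjusted p = 0.398) and Gnaq at -0.02 (adjusted p = 0.706).

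The partners of Gnb5 gave no call. Of 7 genes in the list of R7-class RGS proteins and their anchors 6 were tested, with Rgs6 at -0.04 (limma adjusted p = 0.484) and Rgs7bp, a membrane anchor of these complexes, at 0.03 (adjusted p = 0.384). Of 12 other RGS genes, whose proteins speed the shutting off of alpha subunits, 7 had an unadjusted limma p under 0.05 and none passed. Over all genes 15.3% had such an unadjusted p. Of the 12 genes, 6 had lower and 6 higher means. Among the 7, Rgs4 at -0.03 and Rgs12 at -0.09 were lower (limma adjusted p = 0.293 and 0.297) and the others higher. Rgs17 was at 0.09, higher in 24 strains (adjusted p = 0.0836), and Rgs2 at 0.27, higher in 20 (adjusted p = 0.129).

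Folding of beta-gamma pairs depends on the CCT chaperonin, and 13 of 14 genes of that list were tested. Cct5 was at 0.03 (limma adjusted p = 0.368) and Tcp1 at 0.02 (adjusted p = 0.594). Among effectors, the GIRK channel genes Kcnj3 at -0.10 (lower in 23 strains, adjusted p = 0.118) and Kcnj9 at -0.12 (lower in 20, adjusted p = 0.142) did not pass, nor did the third tested of 4. Of 17 other effectors 15 were tested, and Prex1, a Rac exchange factor driven by beta-gamma, had the smallest p of all lists, at 0.17 and higher in 24 strains (adjusted p = 0.0764). Plcb4, a phospholipase C beta, was at -0.11 (adjusted p = 0.151). Of 7 receptor kinases and arrestins 5 were tested, with Grk3, a kinase recruited by beta-gamma, at -0.10 (adjusted p = 0.216) and Arrb1 at 0.03 (adjusted p = 0.448). The beta-like genes Gnb1l and Wdr26 were both at 0.01 (adjusted p = 0.950 and 0.847).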

How the data were processed

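The authors deposited 1 intensity per probe set and array, normalized with GCRMA per the submitters' processing notes. Its version and the chip reading steps are not given in the sources used here. All 60 columns were matched to arrays by strain and treatment, with 0 columns left over. Of 45101 probe sets, 34945 carried a single gene symbol, 932 several and 64 were controls. Intensities were taken as log2, each gene was read from its probe set of highest mean, and 11886 of 18193 genes passed a filter of log2 4 on 6 arrays. Fluoxetine and water were compared in limma 3.58.1 (R 4.3.3), blocked on strain and adjusted by Benjamini-Hochberg, checked on simulated data. The strain label pairs the arrays: all 30 water and all 30 fluoxetine arrays correlated best with the other array of their strain (r 0.561 to 0.837). Since each pool is 1 array, treatment p-values are judged against the spread of the within-strain differences over strains. Those of the strain F-test are judged against the spread between both arrays of a strain, and those of the family test against the spread between strains of a family.

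Relations across strains used 100000 permutations, two-sided. The groups of strains for strain means were set after seeing the gaps. Members and lists were chosen with earlier results of these data known. Named genes were all members, the listed genes past the threshold or otherwise the 2 with the smallest p in each list, the 3 most and least alike genes and the nearest neighbours. Gene symbols came from GEO's platform table, updated through RefSeq gene numbers, and neighbours from the RefSeq table of GRCm38.p6. Alternatives changed the block, filter, probe set rule, pseudocount (16), normalization, covariates and strains. The number of arrays limits the precision.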

Additional observations from a re-analysis of the deposited data

Results flagged for a closer look

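Within families of 4 or 5 strains, 24 checks asked whether the highest or lowest strain lay far from the rest, and 5 strains did; chance flags about 1 in 20 such checks. Gnb4 gave 4 of them. Its strain mean was 8.21 in BALB/cJ, far below the other Bagg albino-derived strains A/J, C3H/HeJ and CBA/J (9.03 to 9.13), and 8.11 in SWR/J, far below the other Swiss-derived strains on 1419470_at. On 1439632_at SWR/J was the highest of that family, at 6.12. It was 9.14 in C58/J, above the other C57/C58-related strains at 8.96 to 8.98. Among Bagg albino-derived strains C3H/HeJ had a within-strain difference of 0.13 where the others were lower by 0.23 to 0.25. For Gnb2 the strain mean of NOD/LtJ was 12.57, above the other Swiss-derived strains at 12.46 to 12.48.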

How the results depend on the processing

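Gnb4 kept its direction under all alternatives, from -0.17 to -0.14 with single strains left out and -0.12 with the oligodendrocyte covariate, and no call of Gnb1, Gnb2 or Gnb5 in the treatment contrast was gained. Without the strain pairing (no replicate block) the differences have the same values, -0.16 for Gnb4, and 0 genes passed against 7 with the block. That count was also 0 when probe sets were averaged and with the oligodendrocyte covariate, 1 with no filter, and 0 to 21 with single strains left out. Averaging the probe sets turned Gnb1 to 0.014, and the oligodendrocyte covariate turned Gnb5 to 0.012. The strain F of Gnb2 ran from 1.59 to 1.96 and that of Gnb5 from 1.84 to 3.07 with single strains left out.

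For differences, Gnb4 with Gnb5 gave r = 0.392 with averaged probe sets and 0.173 to 0.569 with single strains left out, Gnb2 with Gnb5 0.385 to 0.576 and Gnb1 with Gnb2 0.271 to 0.425; Spearman gave 0.252 for Gnb4 with Gnb5 and 0.453 for Gnb2 with Gnb5. The 2 relations past the threshold became 1 with averaged probe sets, 0 with Spearman and 0 to 3 with single strains left out. The 7 relations with markers and quality became 4, 1 and 1 to 9.

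Several strain-mean relations changed sign. Most had weak values, but Gnb1 with Gnb2 in the 20 strains had r = 0.493 on the probe sets used. Averaged probe sets gave 0.291 for Gnb4 with Gnb2, 0.351 for Gnb1 with Gnb4 and -0.594 for Gnb1 with Gnb5 in the 10 strains, and -0.217 for Gnb1 with Gnb2 in the 20. Quantile normalization gave -0.010 for Gnb1 with Gnb5 in the 10 strains. Water arrays alone gave 0.078 for Gnb4 with Gnb2 and -0.039 for Gnb4 with Gnb5, and fluoxetine arrays alone 0.068 for Gnb4 with Gnb2 and -0.083 for Gnb1 with Gnb5 in the 10 strains. With single strains left out the ranges were -0.088 to 0.117 for Gnb4 with Gnb2, -0.559 to 0.208 for Gnb1 with Gnb4 in the high strains and -0.232 to 0.429 for Gnb1 with Gnb5 in the 10. The 0 relations past the threshold became 1 with averaged probe sets, 4 with water arrays alone and 0 to 4 with single strains left out; the cause was not tested. Probe sequences were not used here, so whether all strains match the probes was not tested, and 1 array per strain and treatment limits what can be said of any single strain.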

Other observations

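Among partner genes of the beta subunits, Gpr158 and Kcnj9 were picked out after their strain values were seen, so no test is given. Gpr158, which encodes an orphan receptor that anchors complexes of R7-class RGS proteins with Gnb5, was at the floor on probe set 1438526_at in DBA/2J, AKR/J, A/J and PL/J (2.07 to 2.08). The other 26 strains lay between 7.11 in BTBRT T(+) tf/J and 8.36 in FVB/NJ. Its second probe set, 1459430_at, was low in all strains, from 4.35 in A/J to 4.62 in CE/J. The treatment difference was 0.01 on 1438526_at and -0.02 on 1459430_at.

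Kcnj9, which encodes the GIRK3 potassium channel subunit that beta-gamma pairs open, lay between 9.92 and 10.25 on probe set 1450712_at in I/LnJ, C57BR/cdJ, BTBRT T(+) tf/J, MA/MyJ, C57BL/6J and C57BLKS/J, and between 11.55 and 12.54 in the other 24 strains. The same 6 strains were lowest on 1426115_a_at, at 4.05 to 5.24. On 1428602_at the range was 8.99 in P/J to 10.02 in I/LnJ with no such gap, and I/LnJ, the lowest strain on 1450712_at, was the highest there.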
